A study of Mus musculus with 12 samples.

Results

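Kidney cluster 8 is a group of cells that the authors separated by transcript profile in the 28W kidney library, and it is marked by B cell genes, by *Junb* and by *Klf2*. Its members were the cells to which the deposited cluster file gave the number 8, and these were 544 of the 7135 kidney cells and of the 20510 cells of the series. That is 7.62% of the kidney cells (exact binomial limits 7.02% to 8.26%). The series sampled PD-1+CD44+CD8+ T cells of female NZB/W F1 mice, a cross that develops lupus nephritis with age, and the labels name no transgene, deletion or treatment for the groups used here. The groups were named 12W spleen, 28W spleen and 28W kidney after the organ and the age of the mice, 12 or 28 weeks, and each has 4 labelled samples that the tables pool, so each group was 1 library without a replicate. Kidney tissue was digested with collagenase I and cleared on Percoll, a step not described for spleen, and cells were sorted before loading on the 5′ v2 droplet chemistry, which counts transcripts by unique molecular identifiers (UMIs). The number of mice behind the library is not stated. The tables hold cluster means and not single cells, so B cell and T cell transcripts of cluster 8 cannot be assigned to the same or to different cells, and fewer cells of a type and less RNA per cell cannot be told apart.

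B cells carry an antigen receptor made of an immunoglobulin bound to the signalling chains CD79A and CD79B, and they load peptides on MHC class II, with CD74 as the chaperone, to show them to CD4+ T cells. Resting lymphocytes recirculate through blood and lymph with the help of KLF2, which maintains the egress receptor S1PR1. JUNB is a subunit of AP-1, a transcription factor whose genes, like those of the NF-kB inhibitors, are transcribed soon after receptor stimulation.

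The 4 markers given for the cluster were checked first. *Cd79a* (GRCm38 chromosome 7, 24897381 to 24902197) was at 1074 UMIs per 1000000 UMIs of the cluster (CPM, exact Poisson limits 1036 to 1113), against a median of 1.39 and a maximum of 130 CPM in the other 11 kidney clusters. *Junb* (chromosome 8, 84974484 to 84978718) was at 4515 CPM, against 234 to 836 CPM elsewhere in kidney, and *Klf2* (chromosome 8, 72319033 to 72321656) was at 1309 CPM, against 87.7 to 610. *Cd74* was at 8718 CPM, second to the myeloid-marked cluster 12 at 24827 CPM, with a median of 47.8 CPM in the other clusters. Cluster 8 was thus the highest of the 12 kidney clusters for 3 of its 4 markers. All limits here cover counting error only.

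The same markers per cell gave the same order. Cluster 8 held 23.3 UMIs of *Junb* per cell, against 0.453 to 3.91 in the other kidney clusters, and 5.53 of *Cd79a*, against at most 0.220. Among the 33 clusters of the 3 libraries, cluster 8 stood first for *Junb*, ahead of 28W spleen cluster 11 at 1539 CPM, and its ranks were 2 for *Cd79a*, 3 for *Cd74* and 8 for *Klf2*. Tables were normalized separately by library, so levels set across libraries rest on rescaling to CPM.

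Of the genes that define the sort, *Pdcd1* and *Cd8a* were at the low end. *Cd44* was in none of the lists and is not reported here. *Pdcd1*, which encodes PD-1, was at 24.6 CPM (69 UMIs), the lowest of the 12 kidney clusters, against 65.1 to 229 CPM elsewhere. *Cd8a* was at 168 CPM, above cluster 12 alone, with a median of 768 CPM in the other clusters. The markers were given for this cluster from the same values, so their levels describe it and are no independent support of its label. No cell type name is given to the cluster here, because T cell genes were also present in it.

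Cluster 8 held 2802287 UMIs, or 9.36% of the kidney library. Its 5151 UMIs per cell had rank 4 of the 12 kidney clusters, which ran from 1200 to 11404. Mitochondrial genes took 0.830% of its UMIs, against a median of 0.675% and a maximum of 10.8% in cluster 2, and ribosomal protein genes took 32.5%. A gene with 0 UMIs has an upper limit of 3 counts, or 1.07 CPM in cluster 8. Of its 544 cell barcodes, 3 also occurred in the 12W spleen library and 10 in the 28W spleen library. Of all 7135 kidney barcodes, 56 and 66 did.

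A fold is the log2 ratio of cluster 8 to the UMIs of the other 11 kidney clusters pooled, after adding 1 CPM to each. The cluster was made from these genes, so folds describe it and carry no test. Of 3048 genes with at least 50 CPM on either side, 290 (9.51%) were at least 2-fold higher in cluster 8 and 422 (13.8%) at least 2-fold lower. Their median fold was -0.29. With all UMIs rescaled so that the median gene had a fold of 0, folds shifted upward by about that amount and the counts were 390 higher and 246 lower, so that the balance of higher and lower genes turned. Over all 17790 genes with a UMI, 5.33% were at least 2-fold higher and 13.4% lower, with a median fold of -0.20, and lists below are read against these shares.

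B cell identity genes were the most raised list. Of 16 genes, 16 were at least 2-fold higher in cluster 8 and 15 were at their highest there among the 12 kidney clusters, where 5.33% of all genes were that much higher. The list median was 4.77 on the log2 scale. The list summed to 3135 CPM in cluster 8 and 114 CPM in the rest of the library, a 27.4-fold difference, and no other cluster exceeded the 505 CPM of cluster 12.

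Genes of the B cell lineage factors came with those of the receptor complex. *Ebf1*, a transcription factor that specifies the B lineage, was at 278 CPM (limits 258 to 298), with a median of 0.29 and a maximum of 11.6 CPM in the other clusters, a log2 fold of 6.95. *Pax5*, which maintains B cell commitment, was at 20.0 CPM from 56 UMIs, against 3 UMIs in all other kidney clusters together. *Spib*, an ETS family factor of B cells and plasmacytoid dendritic cells, was at 27.1 CPM against 0.26. None of the other 11 clusters reached the level of cluster 8 for any of these 3 factors.

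The surface proteins followed. *Ms4a1*, which encodes CD20, was at 225 CPM, with 0 to 5.39 CPM in the other clusters. *Fcmr*, which encodes the Fc receptor for IgM, had the largest fold of the ranked genes outside the receptor segments, at 190 against 0.48 CPM and a log2 fold of 7.01. For both genes, cluster 8 held nearly all kidney UMIs, namely 94.9% for *Ms4a1* and 97.6% for *Fcmr*. *Cd79b* was less particular, at 292 CPM against 10.4 to 46.5 CPM in the other clusters.

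*Cd72*, an inhibitory coreceptor, was the one B cell identity gene that was higher elsewhere. It was at 138 CPM in cluster 8 and at 326 CPM in cluster 12. Genes of receptor signalling were likewise shared with cluster 12. Of 9 signalling genes, 7 were at least 2-fold higher in cluster 8 than in the other clusters pooled, with a list median of 2.98, but cluster 12 summed to 1408 CPM and cluster 8 to 530 CPM. *Syk*, the kinase next to the B cell receptor, was at 61.4 CPM in cluster 8 and 88.6 in cluster 12, and *Btk* at 25.0 and 35.6 CPM. *Vav1*, which T cells use as well, had a fold of -0.43.

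**Figure D1:**
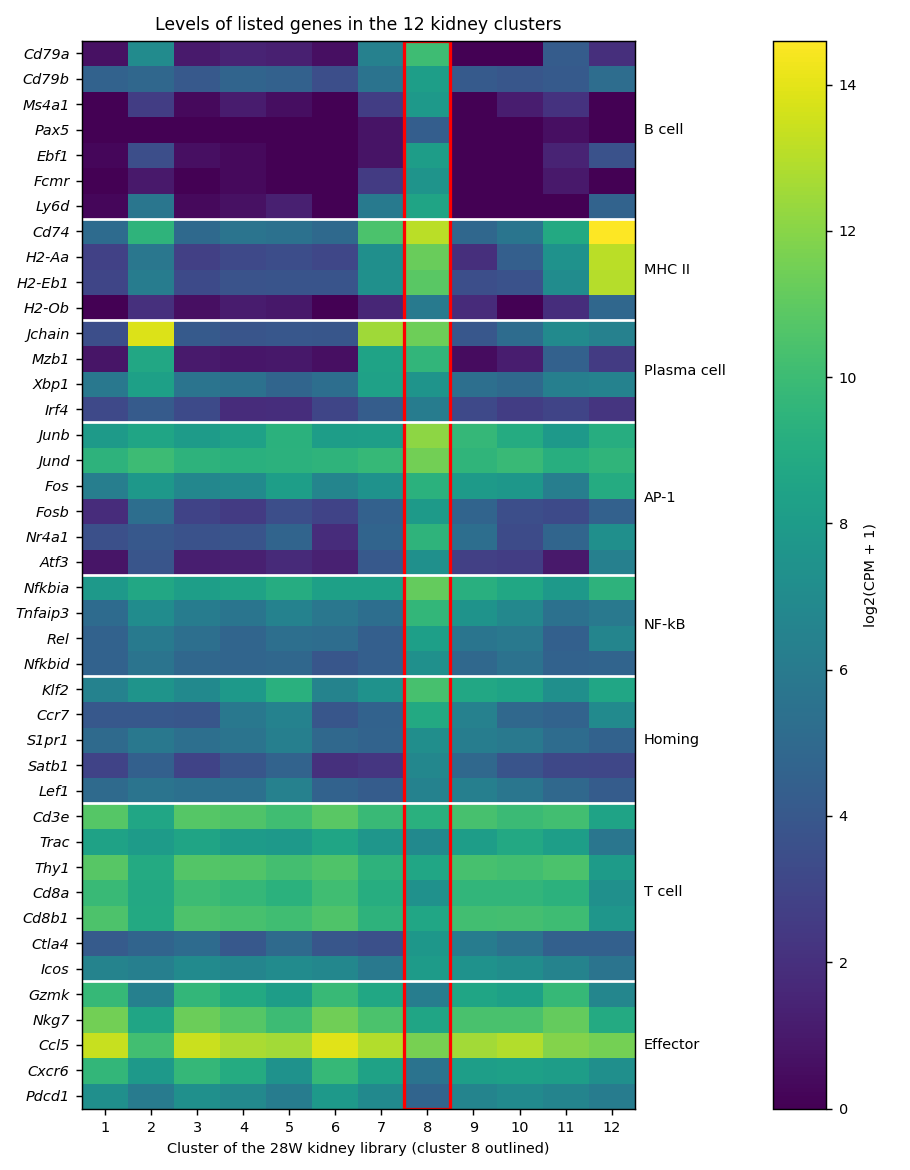
Levels of listed genes in each of the 12 kidney clusters, as log2(CPM + 1) by colour, with genes in rows, clusters in columns and cluster 8 outlined. The B cell rows are bright in cluster 8, where *Cd79a* was at 1074 CPM, the MHC class II rows are brighter in cluster 12 for *Cd74*, *H2-Aa* and *H2-Eb1*, and *Pdcd1* is darkest in cluster 8.

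MHC class II genes were high in cluster 8 and higher still in cluster 12. Of 10 genes, 9 were at least 2-fold higher in cluster 8 than in the other clusters pooled, with a median fold of 2.37 and a sum of 14892 against 2203 CPM. The sum in cluster 12 was 48189 CPM, while the median of the 11 other clusters was 126 CPM. The pooled comparison therefore contains cluster 12, and without clusters 2, 7, 11 and 12, where tubule, red cell or macrophage genes summed to at least 3 times their level over the library, the median fold was 5.78.

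*H2-Aa*, an MHC class II alpha chain, was at 2463 CPM in cluster 8, with a median of 9.72 CPM in the other clusters and 8646 CPM in cluster 12. *H2-Eb1*, a beta chain, was at 1837 CPM, with a median of 12.9 CPM elsewhere and 8086 CPM in cluster 12. The peptide editors differed between these clusters. *H2-Ob* and *H2-Oa*, which encode the HLA-DO homologue that restrains peptide loading and is known from B cells, were highest in cluster 8, at 61.0 and 58.9 CPM against 28.9 and 42.4 CPM in cluster 12. *H2-DMb1*, a chain of the peptide exchange factor, was at 24.6 CPM in cluster 8 and 318 CPM in cluster 12, whereas its paralogue *H2-DMb2* was at 297 and 365 CPM. Reads of the near-identical *H2-DMb1* and *H2-DMb2* could be split by the counting, so their separate levels are uncertain. *Ciita*, the coactivator that switches on class II genes, was at 16.1 CPM in cluster 8 and 51.0 CPM in cluster 12, with a median of 0 in the others.

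Class II genes are known to share an upstream regulatory module whose Y box is an inverted CCAAT, so 2 of their promoters are shown with this box. Of the 10 genes, 7 had a promoter in the RefSeq table (GRCm38.p6, 250 bases before to 50 after the start). A gene counted as a match when any of its promoters held the letters on either strand. For CCAAT, 7 of these 7 genes matched, against 41.1% of 27025 genes with promoters of the same length. The 250 bases before the start of *H2-Aa* (chr17:34287824-34288073, minus strand) and of *H2-Eb1* (chr17:34305617-34305866, plus strand) are printed 5′ to 3′ along the gene, with the CCAAT box or its reverse complement in capitals. These are reference sequences, not those of the NZB or NZW alleles.
H2-Aa: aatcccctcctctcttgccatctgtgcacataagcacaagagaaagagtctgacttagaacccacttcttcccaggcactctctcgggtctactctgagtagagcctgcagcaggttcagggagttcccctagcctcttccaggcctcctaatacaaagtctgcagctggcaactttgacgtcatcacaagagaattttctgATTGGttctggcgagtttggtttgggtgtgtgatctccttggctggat
H2-Eb1: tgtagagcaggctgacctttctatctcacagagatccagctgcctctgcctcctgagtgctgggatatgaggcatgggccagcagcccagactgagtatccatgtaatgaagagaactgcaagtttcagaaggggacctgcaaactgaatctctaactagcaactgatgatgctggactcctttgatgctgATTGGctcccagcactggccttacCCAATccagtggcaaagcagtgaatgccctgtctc
The inverted form began 48 bases before the start in *H2-Aa* and 59 bases before it in *H2-Eb1*. The match that began 35 bases before the start of *H2-Eb1* was CCAAT itself. Either strand was counted, so 7 of 7 does not refer to the inverted form alone. A match describes the letters and is no evidence of binding. The octamer ATTTGCAT of immunoglobulin promoters was found for 1 of 11 B cell identity genes, *Blnk*, against 1.97% of all genes with a promoter, and CCAAT for 4 of those 11.

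Immunoglobulin transcripts were present with a makeup unlike that of the other kidney clusters pooled. Of 12 constant region genes, 7 were at least 2-fold higher in cluster 8 and 3 lower, and the sum was 3366 CPM against 1265 CPM. Cluster 7, which held the kidney tubule genes, had more, at 8624 CPM. *Ighm*, the constant region of IgM, was at 983 CPM in cluster 8, the highest of the 12, with 84.3 to 749 CPM elsewhere. It made up 75.9% of the 3629 heavy chain constant region UMIs in cluster 8 (exact binomial limits 74.5% to 77.3%), and 32.1% of the 13762 in the other clusters.

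*Ighd*, the constant region of IgD on mature resting B cells, was at 21.1 CPM in cluster 8 from 59 UMIs, against 5 UMIs in all other kidney clusters. The switched isotypes were unevenly placed. *Ighg1* took 10.7% of heavy chain constant region UMIs in cluster 8 and 6.24% in the other clusters pooled, and *Ighg2c* 7.94% and 6.57%. *Ighg2b*, *Ighg3* and *Igha* were scarcer in cluster 8, at 2.48%, 0.716% and 0.606%, against 22.3%, 11.9% and 20.8% in the other clusters pooled. Cluster 11 held 835 of the 859 *Ighg1* UMIs outside cluster 8, at 204 CPM, above the 139 CPM of cluster 8. Cluster 7 held 2961 of the 3071 for *Ighg2b*, and cluster 2 held 1979 of the 2858 for *Igha*. The pooled shares thus rest on few clusters. The limits on these shares are too narrow, since transcripts from a single cell or clone do not vary independently.

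Light chains differed in the same way. The lambda constant regions took 39.5% of light chain constant UMIs in cluster 8 (38.2% to 40.7%) and 7.12% in the other clusters (6.78% to 7.48%). *Iglc2* was at 472 against 28.7 CPM and *Iglc3* at 179 against 9.66 CPM, and both were highest in cluster 8. *Iglc2* and *Iglc3* are close copies, so the split between them is uncertain. *Igkc*, the kappa constant region, was at 1254 CPM, with rank 4 of the 12 clusters.

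Variable segments were more abundant than in most kidney clusters and were dominated by a few. Immunoglobulin V, D and J segments took 2.61% of the UMIs of cluster 8, against a median of 0.00564% and a maximum of 12.7% in cluster 2. Kappa variable segments (Igkv) summed to 48295 UMIs in cluster 8, or 88.8 per cell, and heavy chain variable segments (Ighv) to 24185 UMIs, or 44.5 per cell. The effective number of Igkv segments, the inverse of the summed squared shares, was 5.25 in cluster 8 and 13.7 in the other clusters pooled, and that of Ighv was 3.02 and 7.49. It was not computed for each of the other kidney clusters. The contrast therefore does not show a lower number in cluster 8 than in any single one of them. The 3 most used segments made up 68.0% of Igkv and 76.0% of Ighv UMIs in cluster 8.

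*Igkv13-84* led with 33.3% of Igkv UMIs, against 4.34% in the other clusters, followed by *Igkv3-2* with 19.2% against 13.3%. *Igkv16-104* took 15.5% in cluster 8 and 0.0107% elsewhere, so that cluster 8 held 99.8% of its kidney UMIs. Among heavy chains, *Ighv1-14* took 55.0% against 31.5%, *Ighv1-82* 10.6% against 0.0119% and *Ighv1-5* 10.4% against 5.93%. Some leading segments were thus shared with the immunoglobulin-rich clusters 2 and 7, and others were nearly restricted to cluster 8. *Ighv1-59* had 718 UMIs in cluster 8 and 0 in the other clusters. NZB and NZW segments differ from the reference, so reads may have been counted under a related segment.

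T cell receptor segments were also present. Beta chain variable segments (Trbv) summed to 2796 UMIs, or 998 CPM, against 1810 CPM in the other clusters. Their effective number was 8.18, against 6.59 elsewhere. *Trbv13-1* took 21.7% of these UMIs, against 25.5% in the other clusters, *Trbv13-2* 18.5% against 23.4% and *Trbv1* 10.6% against 6.15%. These 3 segments thus appeared at shares within a factor of 2 of those in the other clusters, as did *Igkv3-2*, *Ighv1-14* and *Ighv1-5*, and unlike *Igkv13-84*, *Igkv16-104* and *Ighv1-82*. Alpha chain segments (Trav) showed an effective number of 31.4, against 33.5.

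**Figure D2:**
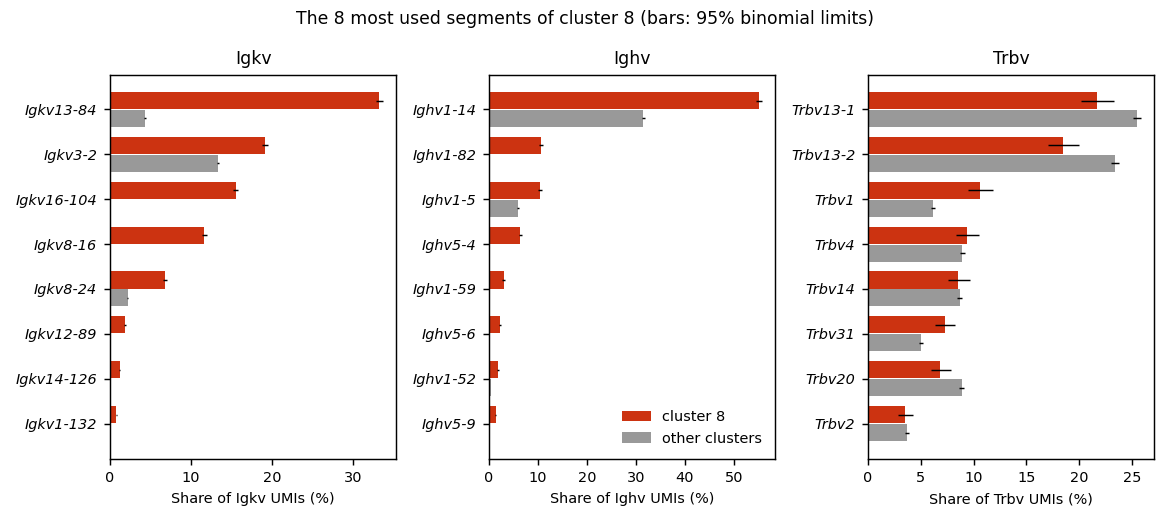
Share of Igkv, Ighv and Trbv UMIs (%) taken by the 8 segments most used in cluster 8, for cluster 8 (red) and the other kidney clusters pooled (grey), with exact 95% binomial limits as bars. *Igkv16-104* and *Ighv1-82* have red bars of 15.5% and 10.6% beside grey bars near 0, while Trbv bars are of like length in both.

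Among B cell subsets, the follicular list stood out and the germinal centre list did not. Of 7 follicular genes, 7 were at least 2-fold higher, with a median of 3.24 and a sum of 769 against 107 CPM. *Fcer2a*, which encodes the follicular B cell marker CD23, was at 13.2 CPM with 0 UMIs in the other clusters, at least 119-fold higher when 3 counts over those clusters are taken as the limit. *Cxcr5*, the receptor that guides cells into follicles, was at 32.8 against 4.20 CPM. *Tnfrsf13c*, the receptor for the survival factor BAFF, was at 66.4 against 6.15 CPM. *Ccr7*, also on this list, is expressed by naive and memory T cells as well.

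Of 8 marginal zone and B-1 genes, 5 were at least 2-fold higher, with a median of 1.39. *Cr2*, the complement receptor CD21, was at 22.1 CPM with 0 UMIs in the other clusters, at least 200-fold higher on the same limit, and *Cd9* was at 91.7 CPM, below the 314 CPM of cluster 12. Germinal centre genes summed to 64.9 CPM, against 67.4 CPM in the other clusters pooled, and *Fas*, a death receptor of activated lymphocytes in general, gave 37.1 CPM of this. *Rgs13*, a regulator of G protein signalling, had 1 UMI, *Bcl6*, the factor that directs the germinal centre programme, was at 5.35 against 5.49 CPM, and the list median was 0.18, or -0.06 with genes at 0 set to their limit or left out. The list of age-associated B cell genes was mixed, with a median of 0.13. *Fcrl5* was at 13.2 against 0.29 CPM and *Fcgr2b* at 31.8 against 5.45 CPM, while *Tbx21* and *Itgax*, which T cells and myeloid cells also express, had folds of -1.11 and -2.06.

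Plasma cell genes were raised without being highest in cluster 8. Of 8 genes, 6 were at least 2-fold higher, with a median of 1.94 and a sum of 3807 CPM, against 15375 CPM in cluster 2. *Jchain*, which joins IgM and IgA multimers, was at 2674 CPM in cluster 8 and 14482 CPM in cluster 2. *Mzb1*, a chaperone of immunoglobulin assembly that B cells also express, was at 789 CPM, the highest of the 12 clusters. *Irf4*, a factor of activated B and T cells and plasma cells, was highest too, at 68.5 against 7.52 CPM. *Sdc1*, the plasma cell surface marker CD138, was at 22.5 CPM in cluster 8 and 38.2 CPM in cluster 2, and *Prdm1*, the factor that drives plasma cell differentiation, was at 13.6 against 12.4 CPM.

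Of 10 survival and costimulation genes, 4 were at least 2-fold higher and none lower, with a median of 0.58. *Cd83*, which rises on activated B cells and dendritic cells, was at 195 CPM in cluster 8, against 1.03 to 111 CPM. *Cd40*, the receptor for T cell help, was at 20.7 CPM in cluster 8 and 64.5 CPM in cluster 12. *Cd86* and *Cd80*, the ligands of CD28, had folds of 0.02 and 0.48.

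AP-1 and immediate early genes were also raised as a list. Of 14 genes, 13 were at least 2-fold higher and 12 were at their highest in cluster 8, with a median fold of 2.51. Their sum was 13193 CPM, against 1542 to 4171 CPM in the other kidney clusters, and it was the largest among the 33 clusters of the 3 libraries. *Junb* alone gave 12653 UMIs, which were 55.8% of all *Junb* UMIs in the kidney library, at 4515 against 369 CPM.

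*Jund* was at 2929 CPM, against 561 to 1027 CPM in the other clusters, and *Fos* at 637 CPM, against 73.4 to 510. *Fosb* was at 243 CPM, against 2.54 to 37.2 CPM, a log2 fold of 4.40. *Jun* was the AP-1 subunit with the smallest difference, at 696 against 324 CPM, and it was higher in cluster 2, at 851 CPM. *Nr4a1*, an orphan nuclear receptor induced by antigen receptor signals in B and T cells, was at 733 CPM, against 2.59 to 155 CPM. *Egr1* was at 223 against 22.1 CPM, *Atf3* at 158 against 6.04 CPM, and *Btg2* had the smallest fold of the list, 0.56.

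Heat shock genes were not raised. Of 8 heat shock genes, none were at least 2-fold higher and 2 were lower, with a median of -0.30, which is close to that of all genes at 50 CPM. *Hspa1a* and *Hspa1b*, the inducible HSP70 genes, were at 90.6 and 47.8 CPM in cluster 8, the lowest of the 12 clusters, against 379 to 1164 and 174 to 984 CPM. They are near-identical copies, so the split between them is uncertain. All kidney cells went through the same digestion, and its part in the AP-1 level, whose genes are known to respond to dissociation, was not tested.

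NF-kB genes were raised in part, inhibitors among them. Of 12 genes, 6 were at least 2-fold higher and none lower, with a median of 1.23 and a sum of 4174 CPM, against 553 to 1330 CPM in the other clusters. The inhibitor *Nfkbia* was at 2304 CPM, against 236 to 692 CPM, and *Tnfaip3*, which encodes the deubiquitinase A20, was at 810 CPM, against 32.9 to 182. *Nfkbid* was at 160 against 25.9 CPM and *Nfkbiz* at 148 against 19.1 CPM. *Rel*, the subunit c-Rel of lymphocytes, was at 300 against 35.0 CPM. The other subunits differed less, with folds of 0.60 for *Nfkb2*, 0.69 for *Rela*, 0.77 for *Nfkb1* and 0.77 for *Relb*, and *Bcl3* and *Nfkbie* were at 0.05 and -0.09.

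Promoters of the raised inhibitors are shown because NF-kB is known to feed back on them. A kappa B form, GGG followed by any 2 bases and then TTTCC, was sought on either strand. It was found for 4 of the 9 NF-kB list genes with a RefSeq promoter, *Nfkb2*, *Nfkbia*, *Rel* and *Tnfaip3*, and for 1.90% of all 27025 genes. The 250 bases before the start of *Nfkbia* (GRCm38.p6, chr12:55492648-55492897, minus strand) and of *Tnfaip3* (chr10:19015411-19015660, minus strand) are printed 5′ to 3′ along the gene, with the match in capitals.
Nfkbia: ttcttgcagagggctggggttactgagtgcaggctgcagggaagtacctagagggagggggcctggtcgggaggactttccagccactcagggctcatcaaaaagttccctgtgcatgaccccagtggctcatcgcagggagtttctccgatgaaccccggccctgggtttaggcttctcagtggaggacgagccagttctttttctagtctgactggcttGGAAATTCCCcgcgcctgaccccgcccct
Tnfaip3: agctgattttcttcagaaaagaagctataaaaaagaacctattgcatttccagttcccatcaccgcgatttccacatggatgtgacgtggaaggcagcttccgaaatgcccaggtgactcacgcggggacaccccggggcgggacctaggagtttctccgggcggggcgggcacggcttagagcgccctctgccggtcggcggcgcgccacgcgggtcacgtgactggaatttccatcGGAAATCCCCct
The match began 29 bases before the start in *Nfkbia* and 12 bases before it in *Tnfaip3*. Both lie on the strand opposite to the gene. Of the 4 genes with a match, *Nfkb2* was not at least 2-fold higher in cluster 8, with 44.6 against 29.0 CPM.

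Egress and homing genes were raised in cluster 8. Of 12 genes, 7 were at least 2-fold higher and none lower, with a median of 1.21 and a sum of 3069 CPM, against 519 to 2149 CPM elsewhere in kidney. *S1pr1*, the receptor that takes lymphocytes out of tissue along sphingosine 1-phosphate, was at 149 CPM, against 23.1 to 78.7. *Ccr7*, the receptor for lymph node chemokines, was at 460 CPM, against 14.0 to 127 CPM. *Satb1*, a chromatin organiser of lymphocytes, was at 107 against 11.6 CPM.

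Genes of T cell quiescence were not raised alike. *Il7r* was at 135 CPM, below the 624 CPM of cluster 5, with a fold of -0.28, and *Tcf7* at 108 CPM, with rank 4 of the 12 clusters. *S1pr4* had a fold of -0.74. Among the 33 clusters, the list sum gave cluster 8 rank 15, so the level is high for kidney and not for spleen.

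T cell identity genes were lower than in the rest of the kidney library, and were present. Of 15 genes, 8 were at least 2-fold lower and none higher, against 13.4% lower of all genes, and the median was -1.07. Their sum was 4729 CPM, or 43.6% of the 10859 CPM in the other clusters pooled, and only cluster 12 had less, at 2307 CPM. *Cd3e*, a signalling chain of the T cell receptor, was at 613 CPM, against 358 to 1848 CPM, and *Trac*, the alpha chain constant region, at 123 CPM, against 52.0 to 448. *Cd8a* and *Cd8b1*, the chains of CD8, had folds of -2.24 and -1.60, and *Thy1* of -1.82. *Cd2*, *Cd6* and *Trbc2* were nearest to the other clusters, with folds of -0.16, -0.29 and -0.46.

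Per cell, cluster 8 held 3.16 UMIs of *Cd3e* and 0.634 of *Trac*, with medians of 5.91 and 1.15 in the other kidney clusters. It held 5.06 UMIs of *Ighm* and 1.16 of *Ms4a1* per cell, with medians of 0.595 and 0.00158 in the others. Transcripts of both lineages were therefore present in the cluster, with those of *Trac* below 1 UMI per cell. Whether these are B cells and T cells side by side, droplets with more than 1 cell or free RNA was not tested, since no doublet call can be made on cluster means.

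**Figure D3:**
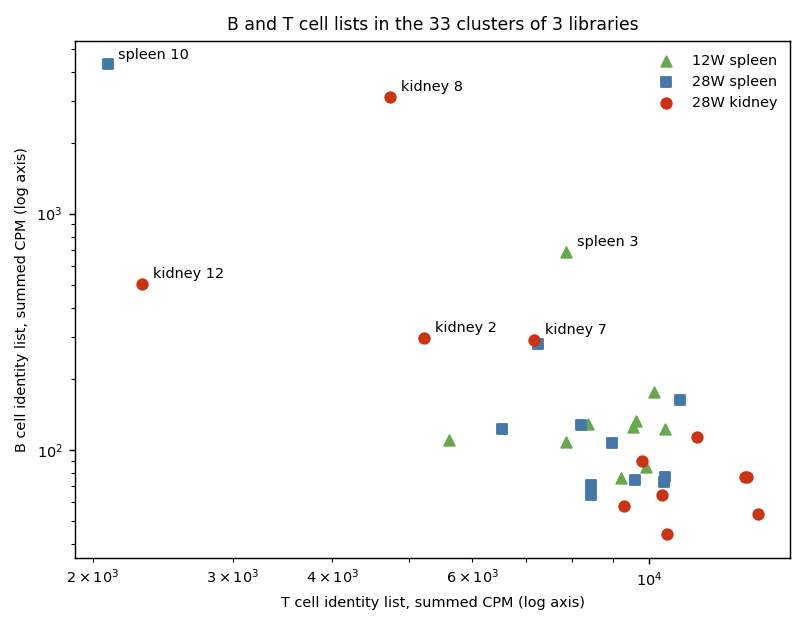
Summed level of the B cell identity list against that of the T cell identity list (both in CPM, log axes) for the 33 clusters of the 3 libraries, 1 point a cluster. Kidney cluster 8 lies at 3135 CPM of B cell and 4729 CPM of T cell genes, between 28W spleen cluster 10 at 4298 and 2089 CPM and the T cell-marked clusters at the lower right.

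Effector genes were reduced. Of 9 cytotoxic genes, 7 were at least 2-fold lower and none higher, with a median of -1.64 and a sum of 4426 against 12298 CPM. *Gzmk*, a granzyme of memory and chronically stimulated CD8+ T cells, was at 70.7 CPM, against 79.6 to 902 CPM, and *Nkg7*, a granule membrane protein, at 387 CPM, against 388 to 2841 CPM. *Prf1*, perforin, was at 27.8 against 89.0 CPM. Cluster 8 was the lowest of the 12 kidney clusters for these 3 genes, but by small differences. Cluster 2 was next for *Gzmk* (77 UMIs) and nearly level for *Nkg7*, and cluster 12 was next for *Prf1*, at 30.8 CPM from 32 UMIs. *Ccl5* was at 3080 CPM, above clusters 2 and 12, and *Ifng* and *Ccl4* had folds of 0.19 and 0.37.

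Residency and inhibitory genes were mixed. Of 6 residency genes, 1 was at least 2-fold higher and 3 lower, with a median of -0.83. *Cxcr6*, a chemokine receptor of tissue T cells, was at 46.0 CPM, against 154 to 870 CPM, and *Itga1*, an integrin of resident cells, had 0 UMIs, at least 10.5-fold lower on the limit of 3 counts in cluster 8. *Cd69*, which retains cells in tissue and is also an early activation gene of B and T cells, was the highest of the 12, at 421 CPM, against 37.6 to 161. Of 8 inhibitory receptors, 1 was at least 2-fold higher and 4 lower, and the median was -0.73, while the summed levels were 410 and 395 CPM. That sum was carried by *Ctla4*, which restrains CD28 costimulation, at 213 CPM in cluster 8, against 10.8 to 69.7 CPM. *Tigit* and *Lag3* had folds of -0.18 and -0.11.

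Helper and regulatory T cell genes each summed highest in cluster 8, at 284 CPM against at most 198 CPM and at 218 CPM against at most 175 CPM. *Icos* and *Capg*, which are not restricted to these T cells, made up most of these sums. *Foxp3*, the regulatory T cell factor, was at 11.8 CPM from 33 UMIs, against 0 to 3.76 CPM in the other clusters, and *Icos*, a costimulatory receptor, at 257 CPM, against 47.2 to 174. *Cd4* was at 12.5 CPM from 35 UMIs, with a median of 2.60 CPM elsewhere and 20.2 CPM in cluster 12. *Il2ra* was at 5.35 against 4.35 CPM, and *Il21* and *Il4* had 1 and 0 UMIs. The regulatory list had a median of 1.12, with 3 of 5 genes at least 2-fold higher, and the helper list 0.36, with 2 of 6.

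Interferon-stimulated genes were lower, and cell cycle genes were lower than in the cycling cluster 11. Of 8 interferon-stimulated genes, 5 were at least 2-fold lower and none higher, with a median of -1.24. *Isg15*, a ubiquitin-like protein, was at 144 CPM, the lowest of the 12 clusters, against 148 to 908 CPM. Of 7 proliferation genes, 7 were at least 2-fold lower, with a median of -2.70, but their sum of 530 CPM lay at the median of 504 CPM over the other clusters, and the cycling cluster 11 summed to 9654 CPM. Without clusters 2, 7, 11 and 12, the list median was -0.08. *Mki67* was at 12.9 CPM in cluster 8, against a median of 19.4 and a maximum of 484 CPM.

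Among secreted ligands, *Cxcl10*, an interferon-induced chemokine, was at its highest in cluster 8, at 119 CPM, against 10.2 to 89.5 CPM. *Xcl1* was at 215 against 137 CPM, *Tnf* at 76.7 against 62.2 CPM and *Ltb* at 603 against 1232 CPM. The list median was -0.29, or 0.00 with 1 gene left out that was at 0 UMIs.

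**Figure D4:**
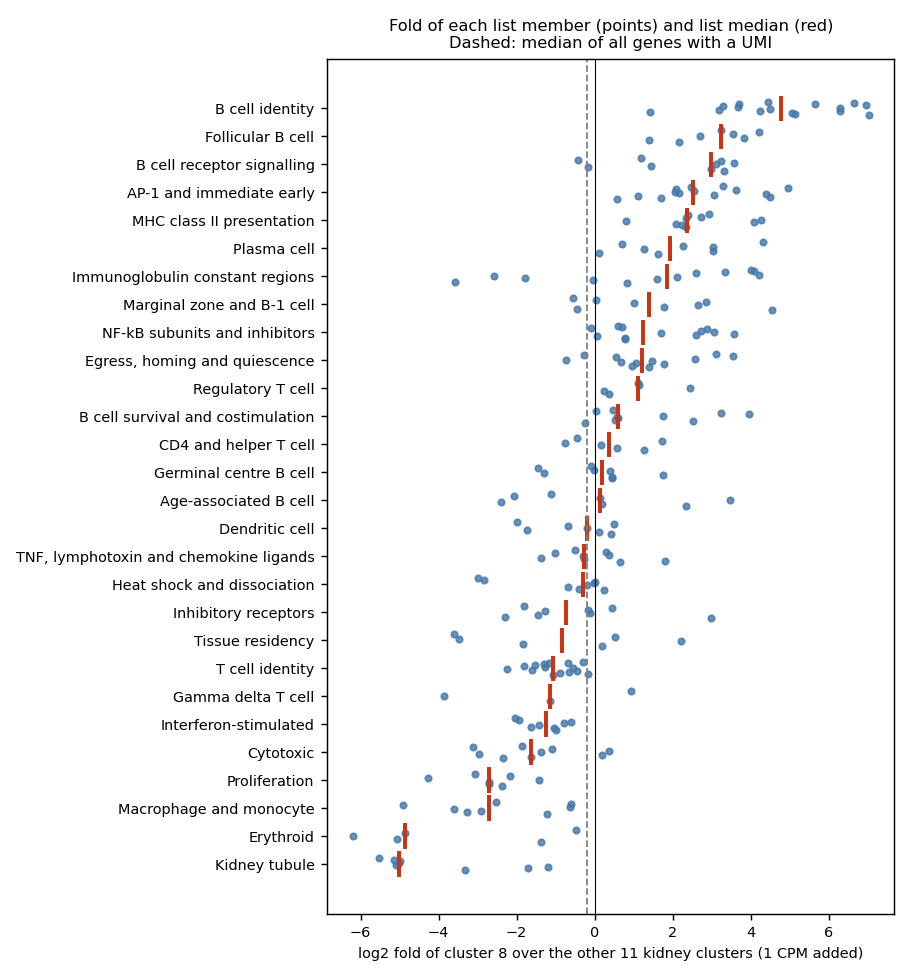
Log2 fold of cluster 8 over the other 11 kidney clusters (1 CPM added) for each member of the 28 lists, with 1 point a gene and the list median as a red bar. The dashed line marks the median of all genes with a UMI, -0.20, and medians run from 4.77 for B cell identity to -5.00 for kidney tubule genes.

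Markers of other cell types summed to less than those of B and T cells in cluster 8. The 8 macrophage and monocyte genes summed to 129 CPM in cluster 8, against 11.6 to 14469 CPM in the other clusters with a median of 28.4, and 6 were at least 2-fold lower. That sum was second to cluster 12, and most of it came from *Tyrobp* at 52.5 CPM and *Fcer1g* at 45.7 CPM, signalling adaptors of myeloid and NK cells that were also second to cluster 12. Without clusters 2, 7, 11 and 12, the list median was 1.78. *Csf1r*, the macrophage growth factor receptor, had 5 UMIs, and *C1qa* was at 6.42 CPM, against 2293 CPM in cluster 12. The 7 dendritic cell genes summed to 8.21 CPM, with *Clec9a* and *Xcr1* at 0 UMIs. Tubule genes summed to 20.7 CPM, against 14148 CPM in cluster 7 and a median of 30.1, with *Aqp1* and *Umod* at 0 UMIs, and red cell genes to 4.28 CPM, against 2147 CPM in cluster 2. The part of myeloid cells in the class II level, which was also second to cluster 12, was not tested. Of 5 gamma delta T cell genes, 2 were not found by symbol and the other 3 summed to 9.64 CPM, with a median of -1.15, or -0.18 with genes at 0 set to their limit.

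Genes at 50 CPM were also ranked by these same folds, so the ranking is no separate support for the lists. Of the 15 highest, 8 were B cell identity genes, 2 were AP-1 list genes and 5 were in no list. The 15 highest all passed the minimum of 50 CPM through cluster 8 alone. After *Fcmr*, *Ebf1*, *Ms4a1* and *Cd79a* came, among the genes reported here, *Ly6d*, a surface protein of early and mature B cells, at 368 against 6.45 CPM. *Fcrla* and *Bank1*, both B cell genes, were at 72.8 against 1.11 CPM and 82.1 against 1.51 CPM.

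The 5 genes outside the lists were *Plaur*, *Maff*, *Klf4*, *Hs3st1* and *Bcar3*. *Plaur*, the urokinase receptor, was at 238 against 4.83 CPM, and *Maff*, a small MAF factor, at 118 against 2.03 CPM. *Klf4*, a Krüppel-like factor that restrains lymphocyte division, was at 392 CPM, against a median of 5.09 CPM in the other clusters, with a fold of 5.28. *Hs3st1*, a heparan sulfate sulfotransferase, was at 67.8 against 1.03 CPM, and *Bcar3*, a signalling adaptor, at 50.3 against 1.07 CPM. *Bcar3* lay just above the minimum of 50 CPM.

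Of 17495 genes outside the receptor segments, 554 had at least 50% of their kidney UMIs in cluster 8, of which 51 had at least 50 CPM there. The 10 with most UMIs among these joined the B cell genes *Cd79a*, *Mzb1* and *Iglc2* with the response genes *Junb*, *Nr4a1*, *Tnfaip3*, *Pim1*, *Vps37b* and *Bhlhe40* and with *Ccr7*. *Pim1*, a kinase induced by cytokines, was at 1188 against 84.5 CPM. *Vps37b*, a subunit of the ESCRT-I sorting complex, was at 590 against 30.1 CPM, and *Bhlhe40*, a transcription factor of activated lymphocytes, at 482 against 45.1 CPM.

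The 15 lowest folds described the other clusters more than cluster 8. They comprised the neutrophil genes *S100a9*, *S100a8*, *Ngp* and *Camp*, the haemoglobin genes *Hbb-bs* and *Hba-a1*, tubule genes such as *Spink1*, *Miox*, *Fxyd2*, *Gpx3* and *Slc34a1*, with *Pck1*, *Lyz2*, *Igfbp7* and *Gm20730*. *S100a9* had 2 UMIs in cluster 8 and was at 237 CPM in the others pooled, with a median of 0.67 CPM per cluster. *Spink1* had 2 UMIs as well, against 77.8 CPM pooled and a median of 1.67 CPM. For both genes, the level of cluster 8 was close to that of most kidney clusters.

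Kidney cluster 12 and 28W spleen cluster 10 alone of the 33 clusters had a higher class II sum than cluster 8. Each differed from cluster 8 in other lists. Cluster 12, with 184 cells, had 505 CPM of B cell identity genes and 14469 CPM of macrophage genes, against 3135 and 129 CPM in cluster 8. In 12W spleen cluster 3, B cell identity genes summed to 690 CPM, more than in cluster 12, and class II genes to 3551 CPM. Across 2980 genes, the fold profile of cluster 8 was most like that of 28W spleen cluster 10, with a Pearson correlation of 0.379 across genes, and 0.157 for the next, 12W spleen cluster 9. The correlation was 0.137 for 12W spleen cluster 3 and 0.028 for kidney cluster 12. Genes are not independent, each profile is relative to its own library, and the values are a description.

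28W spleen cluster 10 held 247 cells. Its B cell identity genes summed to 4298 CPM, with a median fold of 6.16 over the other 28W spleen clusters, and its class II genes to 29137 CPM. T cell identity genes were at 2089 CPM there and 4729 CPM in kidney cluster 8. *Cd79a* was at 1196 CPM in the spleen cluster and 1074 CPM in the kidney cluster, and *Ighd* at 43.4 and 21.1 CPM. The kidney cluster thus summed to less of the B cell and class II lists and to more of the T cell list. The effective number of Igkv segments was 4.59 in the spleen cluster and 5.25 in the kidney cluster, and that of Ighv was 4.69 and 3.02. Low effective numbers were thus not particular to the kidney cluster.

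AP-1 genes parted these clusters. Their sum was 3358 CPM in 28W spleen cluster 10, below the 3870 CPM of the other spleen clusters pooled, with a median fold of -0.07, against 13193 CPM and 2.51 in kidney cluster 8. *Junb* was at 450 CPM in the spleen cluster, or 1.26 UMIs per cell, and at 4515 CPM, or 23.3 per cell, in the kidney cluster. *Tnfaip3* was at 34.7 and 810 CPM, *Nfkbia* at 357 and 2304 CPM, and *Klf2* at 756 and 1309 CPM. *Cd69* was at 54.9 CPM in the spleen cluster and 421 CPM in the kidney cluster. Organ, tissue digestion and library cannot be told apart in this comparison, and 1 library per organ allows no test of it.

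Isotypes also differed between these clusters. *Ighg1* was at 4.34 CPM in the spleen cluster and 139 CPM in the kidney cluster, whereas *Ighg3* was at 626 and 9.28 CPM and *Ighg2c* at 643 and 103 CPM. *Jchain* was at 5519 CPM in the spleen cluster and 2674 CPM in kidney, and *Mzb1* at 992 and 789 CPM. *Ighg1* was thus the constant region gene that was higher in the kidney cluster, chosen for mention after its values were seen. Macrophage genes summed to 2676 CPM in the spleen cluster, and their part in its profile was not tested.

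**Figure D5:**
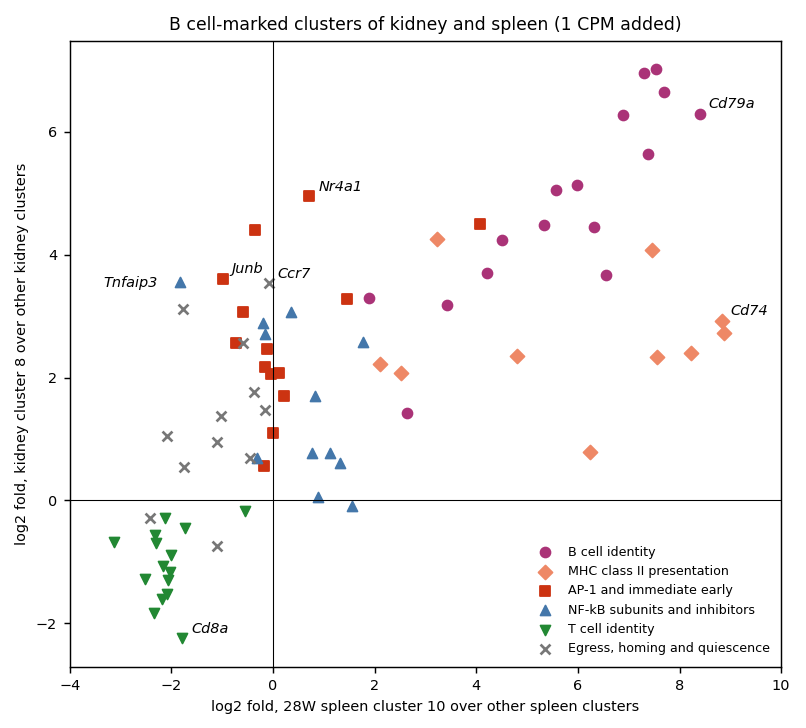
Log2 fold of kidney cluster 8 over the other kidney clusters (vertical) against that of 28W spleen cluster 10 over the other 28W spleen clusters (horizontal) for members of 6 lists, 1 CPM added. B cell identity and MHC class II genes lie at the upper right and T cell identity genes at the lower left, while most AP-1 genes lie near 0 in spleen (median -0.07) and high in kidney (median 2.51).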

How the data were processed

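Cells were sorted and sequenced as described in the labels, and 3 libraries were analysed, 28W kidney and, for comparison, 28W spleen and 12W spleen. The authors deposited, per library, the cluster of every barcode and a table of mean counts by gene and cluster, a normalized score in UMIs scaled by cell size factors, beside log2 fold changes and adjusted p-values of the authors that were not used. The submitters' processing notes name Cell Ranger 2.1.1, R 3.6.1 and GRCm38. Filters on cells and the annotation release are not given in the sources used here.

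Each deposited score column was divided by its step, the value of 1 UMI, which gave whole numbers (within 0.001) for 100% of values. UMIs were summed per cluster and expressed as CPM. Kidney depth was 29937384 UMIs over 7135 cells, with 3501 UMIs in the median cell. The 4 labelled samples of a group are pooled in 1 table with no map from cells to samples, so no count model was run and no test was made. Groups follow the sample titles, also for 28W spleen, whose age label gives 12 weeks.

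Folds used a pseudocount of 1 CPM, which understates differences of low genes, and 50 CPM as the minimum for ranked genes. Limits are exact 95% Poisson or Clopper-Pearson limits. Named genes were the 28 lists, the 15 highest and 15 lowest folds, the 3 most used V segments per family, ranked apart, and the 10 genes with most UMIs among those with at least 50% of kidney UMIs in cluster 8. Some genes that met these rules are not reported here. Other genes of a list or segment family are given as counts. The members, lists and rules were chosen with earlier results of these data known. Coordinates came from GENCODE M21, in which 17775 of 17790 identifiers were found, and promoters from RefSeq. Doublets were not called, since single-cell counts were not analysed here. Analyses used python 3.11.15, pandas 2.3.3 and scipy 1.17.1, and the recovery of UMIs and folds was tested on simulated data. The alternatives tried were other pseudocounts, minima, fold limits, scalings and comparison clusters.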

Additional observations from a re-analysis of the deposited data

Results flagged for a closer look

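For 4 lists, the median log2 fold had opposite signs and a size of at least 0.5 in both kidney cluster 8 and 28W spleen cluster 10, each against the other clusters of its own library. Signs were also opposite, with a smaller size in 1 or both clusters, for AP-1 genes (2.51 in kidney and -0.07 in spleen), CD4 and helper genes (0.36 and -0.31), gamma delta T cell genes (-1.15 and 0.10) and dendritic cell genes (-0.19 and 3.48). The difference was not tested, since each library has no replicate. Egress, homing and quiescence genes had a median of 1.21 in kidney and -1.06 in spleen, with sums of 3069 and 1768 CPM. Regulatory T cell genes had a median of 1.12 in kidney and -0.81 in spleen, where *Foxp3* was at 11.8 and 4.34 CPM and *Capg* at 171 and 259 CPM. Macrophage and monocyte genes had a median of -2.71 in kidney and 5.91 in spleen, with sums of 129 and 2676 CPM, and *Lyz2* was at 3.21 and 720 CPM. Kidney tubule genes had a median of -5.00 in kidney and 1.16 in spleen, where only 4 of the 8 genes were listed, with sums of 20.7 and 11.6 CPM. For the last list the sums were near each other, and the other kidney clusters summed to 856 CPM against 0.70 CPM in the other spleen clusters.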

How the results depend on the processing

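No paired analysis was possible because the tables hold no column per sample, and for the same reason no sample could be left out. Over 28 lists, 136 of 140 medians recomputed under an alternative did not change to the opposite sign, though that of red cell genes came to 0. Genes at least 2-fold higher numbered 881 with a minimum of 10 UMIs in place of 50 CPM, against 290. Genes at least 2-fold lower numbered 2388 with that minimum, 161 at 3-fold and 246 with scaling by the median gene ratio, against 422. Scaling by the median gene ratio, which set a median log2 ratio of -0.30 to 0, moved the medians to 2.80 for AP-1, 1.52 for NF-kB, 1.51 for egress and -0.78 for T cell identity. Scaling to a total that left out receptor, mitochondrial and ribosomal protein genes resulted in 2.71 for AP-1 and -0.88 for T cell identity. A pseudocount of 10 CPM gave 3.01 for B cell identity and 2.33 for AP-1. Weighting the other clusters equally gave 1.55 for MHC class II, 2.28 for AP-1, -0.90 for T cell identity, -0.084 for germinal centre and -0.63 for age-associated B cell genes, and the last pair changed sign. Leaving out clusters 2, 7, 11 and 12 gave 5.78 for MHC class II and -1.21 for T cell identity. It gave 1.78 for macrophage and 0.89 for dendritic cell genes, and this last pair changed sign. Among the clusters left out, cluster 12 had the highest level of both lists, at 14469 and 239 CPM. The medians of kidney tubule and red cell genes were -0.25 and 0 without these clusters, against -5.00 and -4.86. The cause of the changes was not tested. Of 110 medians of the remaining lists, 79 stayed within counting error, 27 moved beyond it and 4 changed sign. Cluster 8 took 7.62% of cells and 9.36% of UMIs. Depth limits genes under the 1.07 CPM that 3 counts give.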
